A study of Mus musculus with 14 samples.

Results

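The Iroquois homeobox genes Irx1, Irx2, Irx3, Irx4, Irx5 and Irx6 were examined in mouse hair follicle stem cells, with Irx5, the gene named in the knockout, also taken transcript by transcript. The 6 genes were chosen by name, from 34049 genes with any count, and all 6 passed the low count filter that kept 24592 genes. Irx5 has 2 transcripts in the deposited quantification. Cells were sorted from the back skin epidermis of pups aged 18 days (P18) or 20 days (P20), keeping those positive for CD34 and for what the labels call CD45f, and negative for Ly-6A/E. P18 has 3 Irx5KO and 3 WT libraries by label, and P20 has 4 and 4. The title of the series ties IRX5 to the repair of damaged DNA and to stem cell activation, and the comparison of genotypes asks what changes when Irx5 is lost. The labels give neither the Irx5 allele, nor whether it is lost in all tissues, nor the strain, and nothing in them shows whether replicate libraries are from different animals. Each p-value is thus set against library-to-library spread, which could be technical.

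Iroquois proteins are transcription factors of the TALE class of homeobox proteins, which carry a short extension in the homeodomain. In mammals the genes lie in a pair of clusters, one with Irx1, Irx2 and Irx4 and the other with Irx3, Irx5 and Irx6, and neighbours within a cluster are often expressed together. Iroquois factors pattern the developing heart, limb, brain and skin. In the mouse heart, Irx5 and Irx3 act on genes of cardiac conduction, and Irx4 is a ventricular factor. Bulge stem cells of the hair follicle are quiescent for most of the hair cycle and proliferate as hair growth restarts.

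In mm10 coordinates, Irx5 (ENSMUSG00000031737.11) lies at chr8:92357625-92376286 on the plus strand, Irx3 (ENSMUSG00000031734.13) at chr8:91798525-91802067 on the minus strand and Irx6 (ENSMUSG00000031738.14) at chr8:92674288-92680956 on the plus strand. Irx1 (ENSMUSG00000060969.9) lies at chr13:71957921-71963723 on the minus strand, Irx2 (ENSMUSG00000001504.10) at chr13:72628820-72634198 on the plus strand and Irx4 (ENSMUSG00000021604.15) at chr13:73260479-73269608 on the plus strand. The 2 Irx5 transcripts share their coding exons up to position 92360879 and differ after it, so they encode proteins with different ends. The coding ends are shown because they are where the coding parts of the isoforms differ. The transcripts also start at different positions, 92357749 for Irx5-201 and 92357625 for Irx5-202. The last 30 shared coding bases are in lower case and the bases that only this transcript codes, stop codon included, are in capitals.
Irx5-201: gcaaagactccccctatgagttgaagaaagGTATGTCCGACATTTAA
Irx5-202: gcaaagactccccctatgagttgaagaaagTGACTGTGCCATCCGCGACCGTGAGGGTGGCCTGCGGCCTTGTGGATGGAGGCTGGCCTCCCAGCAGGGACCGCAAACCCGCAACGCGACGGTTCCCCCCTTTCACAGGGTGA

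Irx5-201 (ENSMUST00000034184.11) has 3 exons and 2450 bases, of which 1455 code, and its own coding end is 17 bases. Irx5-202 (ENSMUST00000210246.1) has 5 exons and 2550 bases, of which 1551 code, and its own coding end is 113 bases. The first 1438 coding bases, the homeobox among them, are the same in both. An alteration in that shared part would therefore not be visible as the loss of either transcript. Of the 31-base windows of each transcript, 577 of 2420 occur only in Irx5-201 and 677 of 2520 only in Irx5-202, so both can draw reads of their own.

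Whether reads of one Iroquois gene could be counted for another was read from the homeobox, their most similar region. The stretch of 54 bases that codes the third helix, which contacts DNA, is shown for the 6 genes, with bases unlike Irx5 in capitals.
Irx5: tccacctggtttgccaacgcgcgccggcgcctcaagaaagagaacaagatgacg
Irx3: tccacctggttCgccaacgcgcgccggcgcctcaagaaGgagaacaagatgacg
Irx6: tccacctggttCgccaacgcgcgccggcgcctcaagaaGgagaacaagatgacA
Irx2: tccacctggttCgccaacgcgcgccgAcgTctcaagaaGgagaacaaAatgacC
Irx1: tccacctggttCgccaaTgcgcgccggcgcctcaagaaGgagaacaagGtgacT
Irx4: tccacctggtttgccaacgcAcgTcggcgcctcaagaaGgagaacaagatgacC

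Over the whole homeobox of 189 bases, Irx2 shared 91.0% of bases with Irx5, Irx3 87.8%, Irx6 85.7%, Irx1 85.2% and Irx4 84.7%. Irx2, from the other cluster, was the closest to Irx5, and every one of its 63 codons gave the same residue. Outside the homeobox the genes are far less alike. Of the 31-base windows of Irx5, 63 of 3097 occur in another gene, against 4 of 2604 for Irx1, 35 of 3305 for Irx2 and 13 of 2603 for Irx4. Irx3 shares 168 of 2762 windows and Irx6 185 of 3368. The antisense gene Irx3os holds 94 of those of Irx3. A strand setting is not given in the sources used here, so reads from those 94 windows could not be told apart.

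Libraries held between 13618367 and 70083873 estimated counts, and no replicates were alike to within sampling noise. A 6-digit code in the deposited tables divides each age into a pair of library sets. At P18, Irx5KO 1, WT 1 and WT 2 share a code, and Irx5KO 2, Irx5KO 3 and WT 3 share the other. At P20 numbers 1 and 2 of each genotype carry the same code, and numbers 3 and 4 another. The word het accompanies the deposited table of P18 WT 3, but its group was taken from the title, WT. No source used here says what the code marks, and comparisons within a code are printed beside the pooled ones. All 8 bulge stem cell markers, Cd34 and Krt15 among them, were at 1 TPM or more in every library, with a summed level of 7419 to 23220 TPM. Summed markers of fibroblasts lay at 12.7 to 98.3 TPM, of endothelium at 1.56 to 46.3, of blood and immune cells at 4.71 to 41.9 and of melanocytes at 4.77 to 27.9. Among other epidermal cells, summed markers of suprabasal epidermis lay at 129.7 to 1917 TPM, of the upper follicle at 133.5 to 449, of the sebaceous gland at 26.6 to 135 and of hair matrix and shaft at 7.71 to 51.2. Receptor genes of smell and pheromone sensing held 5.45% of counts in P18 WT 2, 2.41% in P20 WT 2 and 1.80% in P18 WT 1, and 0.102% to 0.611% elsewhere.

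**Figure D1:**
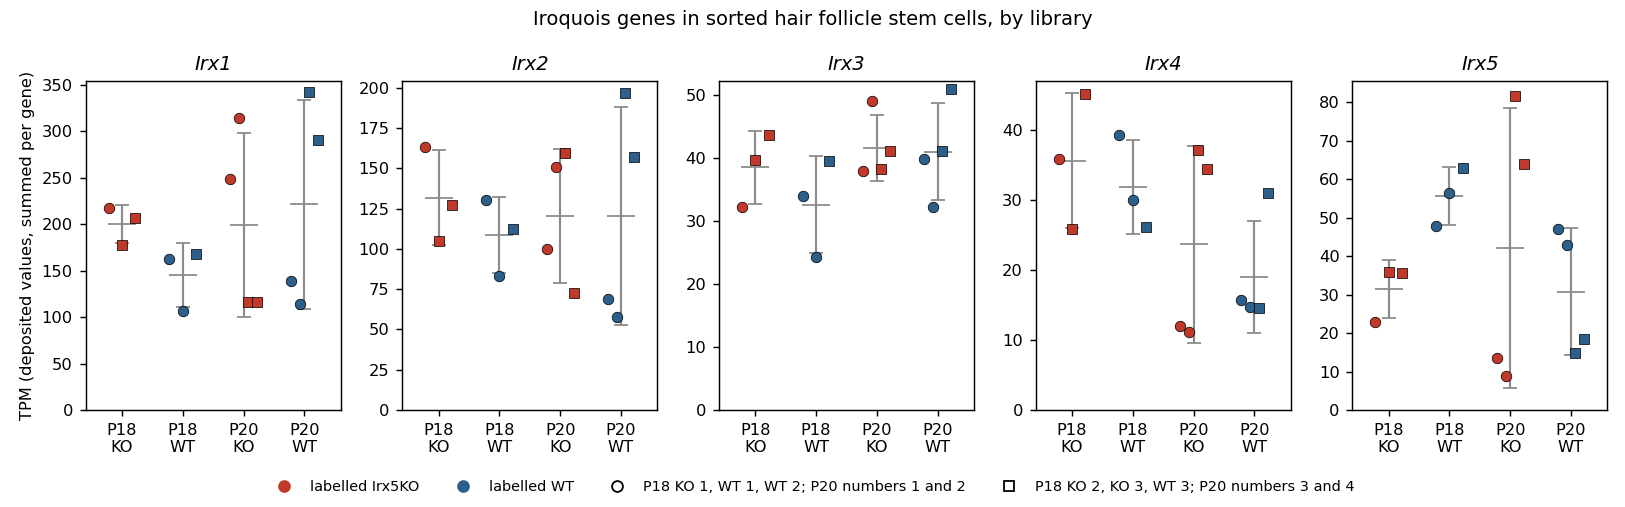
Deposited TPM of Irx1 to Irx5 summed per gene (y axis, each panel from 0), by age and labelled genotype (x axis). Points are libraries, red for Irx5KO and blue for WT, circles and squares for the sets that share a code, and grey bars are the mean ± SD. Irx1 and Irx2 are the highest genes, and at P20 the Irx5 circles and squares lie in opposite order in the 2 genotypes.

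Of the family, 5 genes were expressed in every library and Irx6 was near 0. In TPM, which is per transcript length and allows genes to be set side by side, Irx1 was highest with a median over the 14 libraries of 172.5 TPM (106 to 342). Irx2 followed with a median of 120.0 TPM (58.0 to 197), then Irx3 with 39.6 TPM (24.3 to 50.9), Irx5 with 39.3 TPM (8.87 to 81.7) and Irx4 with 28.1 TPM (11.1 to 45.1). Irx1 lay above Irx2 in 13 of 14 libraries, and both lay above Irx3, Irx4 and Irx5 in all 14. Irx3 lay above Irx5 in 7 of 14 libraries and above Irx4 in 10 of 14, so the order of these last 3 genes was not set beyond their spread. By summed TPM, the most abundant Iroquois genes of these cells were thus 2 members of the cluster without Irx5. For Irx1 that sum rests mostly on a short transcript with few windows of its own, as given below. By counts, which are not per length, Irx2 was the higher of the pair, with 84240 against 74395 over the 14 libraries. Only P20 Irx5KO 1 had more Irx1 than Irx2 by counts, at 7503 against 6492. The order of Irx1 and Irx2 thus depends on the unit.

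The genes varied to very different degrees. To follow a gene between libraries, its counts were expressed as CPM, a level relative to the scaled size of the library. The highest library exceeded the lowest 9.97 times for Irx5, 4.12 times for Irx4, 3.83 times for Irx1, 3.11 times for Irx2 and 2.27 times for Irx3. Irx5, the gene named in the knockout, was therefore also the most variable of the 5, and its extremes were both in libraries labelled P20 Irx5KO.

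Irx5 RNA was present in every library, those labelled Irx5KO included, with 607 to 6199 counts. At P18 it was at 48.0, 70.6 and 73.3 CPM in Irx5KO 1 to 3 and at 93.8, 109.5 and 132 CPM in WT 1 to 3. Every library labelled Irx5KO lay below every library labelled WT, with means of 64.0 ± 13.9 and 112 ± 19.3 CPM (SD, n = 3 each, two-sided exact permutation test, p = 0.1, the smallest p that 3 against 3 allows). The same separation held for 19.5% of all genes tested, so it does not single out Irx5. With scaling factors taken over all genes in place of well expressed ones, the Irx5 groups overlapped (exact permutation test, n = 3 each, p = 0.5).

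In edgeR's quasi-likelihood test over all 14 libraries, Irx5 differed by -0.98 ± 0.88 (log2, SE) between Irx5KO and WT at P18, with an adjusted p of 0.92. The median difference of all genes was -0.55 in this comparison and 0.03 for well expressed genes, from which the scaling was taken. No Iroquois gene passed an adjusted p of 0.05, and neither did any of the 24592 genes (0%). At an unadjusted p under 0.05 there were 978 genes, and DESeq2 called 22 and limma voom 1. Within the codes the Irx5 difference was -1.08 ± 0.33 in Irx5KO 1 against WT 1 and 2 and -0.88 ± 0.31 in Irx5KO 2 and 3 against WT 3. The median of all genes was -1.09 in the first of these sets and -0.05 in the second, and with scaling over all genes the Irx5 value of the first set was -0.43 ± 0.50. Their adjusted p-values in edgeR were 0.56 and 1.0, over 1 gene called in the first set (0.00407%) and 0 in the second (0%; 380 at an unadjusted p under 0.05, 3 called by DESeq2). The pooled fit shares its estimate of spread over all 14 libraries. The P18 error therefore also takes in the opposite Irx5 differences of the P20 codes, given below. Without P20 numbers 3 and 4, the pooled P18 value for Irx5 was -0.969 ± 0.245 (edgeR adjusted p = 0.75). Bulk RNA cannot tell fewer cells with the transcript from less transcript per cell.

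At P20 the 2 codes gave opposite answers for Irx5. In the libraries numbered 1 and 2, Irx5 was at 29.96 and 18.1 CPM where the label was Irx5KO and at 108 and 93.5 CPM where it was WT. In those numbered 3 and 4, it was at 181 and 170.2 CPM where the label was Irx5KO and at 33.2 and 37.5 CPM where it was WT. The libraries labelled P20 Irx5KO 3 and 4 thus held the most Irx5 of all 14, and the P20 WT 3 and 4 libraries less than any at P18. The level of the targeted gene goes against the genotype labels in this set, and every direction from P20 numbers 3 and 4 is a direction between labels.

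Pooled over P20, Irx5 averaged 99.8 ± 87.7 CPM in Irx5KO and 68.0 ± 38.2 CPM in WT (SD, n = 4 each, p = 0.6286 in an exact two-sided permutation test that could reach 0.02857). The edgeR difference was 0.12 ± 0.92 (log2, SE, adjusted p = 0.99), in a comparison that called 0 of 24592 genes (0%; 1082 at an unadjusted p under 0.05, 91 called by DESeq2 and 181 by limma voom). Without the libraries numbered 3 and 4 it was -2.07 ± 0.29 with an adjusted p of 0.0067. The sign also turned when Irx5KO 3, Irx5KO 4, WT 3 or WT 4 alone was left out, at -0.13, -0.08, -0.77 and -0.74. The interaction of genotype with age, 1.10 ± 1.27 (adjusted p = 1.0), likewise turned to -1.10 without numbers 3 and 4. That comparison called 0 genes (0%; 335 at an unadjusted p under 0.05, 11 called by DESeq2).

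**Figure D2:**
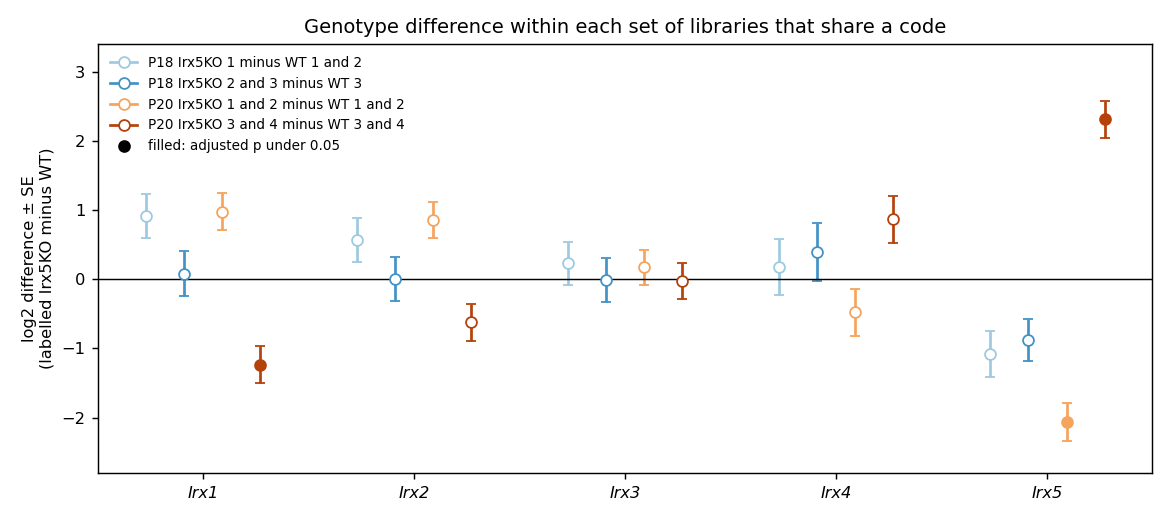
Log2 difference of labelled Irx5KO minus WT (y axis, points, with bars for ± SE from edgeR) for Irx1 to Irx5 (x axis) within each of the 4 sets of libraries that share a code. Filled points passed an adjusted p of 0.05. Irx5 is at -2.06 in P20 numbers 1 and 2 and at 2.31 in P20 numbers 3 and 4, and Irx1 is at 0.97 and -1.24.

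Within each P20 code the Irx5 difference passed. It was -2.06 ± 0.27 in numbers 1 and 2 (log2, SE, edgeR adjusted p = 0.0018), where 161 genes were called (0.655%; 0.138% higher and 0.516% lower). It was 2.31 ± 0.27 in numbers 3 and 4 (adjusted p = 1.46e-04), where 1186 were called (4.82%; 2.2% higher and 2.62% lower). The test of the difference between the codes gave 4.38 ± 0.38 (adjusted p = 5.4e-06), with 1270 genes called (5.16%; 2.68% higher and 2.48% lower). Without Irx5KO 2 the value for numbers 1 and 2 was -1.72 and missed the threshold (adjusted p = 0.065).

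Irx1, the member highest in TPM, had the opposite order to Irx5 in both P20 codes. At P20 it was at 216 and 224 CPM in Irx5KO 1 and 2 against 128 and 96.3 CPM in WT 1 and 2. In the other code it was at 106 and 112 CPM in Irx5KO 3 and 4 against 294 and 221 CPM in WT 3 and 4. In each code the genotype with less Irx5 had more Irx1. In edgeR the differences were 0.97 ± 0.27 (adjusted p = 0.18) and -1.24 ± 0.27 (adjusted p = 0.0145), of which the second passed. The difference between the codes passed too, at -2.21 ± 0.38 (adjusted p = 0.0022). The call in numbers 3 and 4 was lost with scaling over all genes (adjusted p = 0.12) and when Irx5KO 3, Irx5KO 4 or WT 3 was left out (adjusted p = 0.084, 0.088 and 0.18).

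At P18, Irx1 was at 184, 135.4 and 151 CPM in Irx5KO 1 to 3 and at 119, 76.8 and 135.2 CPM in WT 1 to 3. The libraries labelled Irx5KO lay above those labelled WT, as did 3.88% of all genes, but the closest libraries were at 135.4 and 135.2 CPM and the groups overlapped at raw library sizes. The exact permutation test gave p = 0.1 (n = 3 each, two-sided, the smallest possible) and edgeR 0.50 ± 0.43 (log2, SE, adjusted p = 0.92). Within the codes Irx1 differed by 0.91 ± 0.32 in Irx5KO 1 against WT 1 and 2 and by 0.08 ± 0.32 in Irx5KO 2 and 3 against WT 3, and neither passed (edgeR adjusted p = 0.56 and 1.0).

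The ratio of Irx1 to Irx5 TPM in one library needs no scaling between libraries, and was added after the values were seen. At P18 it was 9.55, 4.94 and 5.80 in Irx5KO 1 to 3 and 3.39, 1.88 and 2.67 in WT 1 to 3. At P20 it was 18.5, 35.4, 1.42 and 1.81 in Irx5KO 1 to 4 and 2.95, 2.66, 23.2 and 15.9 in WT 1 to 4. By summed TPM, Irx1 exceeded Irx5 in all 14 libraries, by the widest margins in P20 Irx5KO 1 and 2 and in P20 WT 3 and 4. A short Irx1 transcript of 820 bases, Irx1-203, was estimated to hold 56.9% to 75.8% of Irx1 TPM, so the ratio depends on transcript length. Only 20 of the 790 sequence windows of Irx1-203 are its own, against 1346 of 2343 for Irx1-201. The estimated share of Irx1-203 thus rests on few distinguishing bases, and the summed Irx1 TPM and the ratio carry that limit. In CPM, which is not per length, Irx5 lay above Irx1 in P18 WT 2, at 109.5 against 76.8 CPM. It did so too in P20 Irx5KO 3 and 4, at 180.7 against 105.8 and 170.2 against 112.4 CPM. Irx1 lay above Irx5 in the other libraries.

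Irx2, the neighbour of Irx1 and the closest relative of Irx5 in the homeobox, had the same order as Irx1 in both P20 codes. At P20 it was at 187 and 238 CPM in Irx5KO 1 and 2, 131 and 104 CPM in WT 1 and 2, 177 and 176 CPM in Irx5KO 3 and 4 and 322.5 and 222 CPM in WT 3 and 4. The genotype with less Irx5 again had more Irx2 in each code. The differences were 0.85 ± 0.26 (log2, SE, edgeR adjusted p = 0.29) and -0.63 ± 0.26 (adjusted p = 0.23), and neither passed. The difference between the codes passed at -1.48 ± 0.37 (edgeR adjusted p = 0.030). That call was lost with scaling over all genes, with median-ratio factors, at raw library sizes, in limma voom, with length offsets, and when any of P20 Irx5KO 2, 3 or 4 or WT 2 or 3 was left out.

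At P18, Irx2 overlapped between genotypes, at 220.5, 147 and 168 CPM in Irx5KO and at 168.5, 129.5 and 157.5 CPM in WT (edgeR 0.28 ± 0.33, adjusted p = 0.93). In TPM the Irx2 levels of P20 Irx5KO 3 and 4 differ, at 159 and 72.4 TPM, while their CPM are nearly equal. Irx2-201 held 80.7% to 96.4% of Irx2 counts, and 4 transcripts of 449 to 927 bases held the rest, so the TPM sum depends on how few reads are shared among short transcripts.

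Irx4, a ventricular factor in the mouse heart, lies in the same cluster as Irx1 and Irx2 but did not follow them. It was at 26.9 and 22.55 CPM in P20 Irx5KO 1 and 2, 36.1 and 32.7 CPM in WT 1 and 2, 82.45 and 91.3 CPM in Irx5KO 3 and 4 and 32.7 and 62.9 CPM in WT 3 and 4. In both codes Irx4 was lower where Irx5 was lower. The differences were -0.48 ± 0.34 (log2, SE, edgeR adjusted p = 0.80) and 0.86 ± 0.34 (adjusted p = 0.19), and their difference was 1.34 ± 0.48 (adjusted p = 0.15), none of which passed. At P18 it was at 76.7, 50.75 and 92.8 CPM in Irx5KO and at 77.7, 57.9 and 54.5 CPM in WT, and the groups overlapped (edgeR 0.29 ± 0.37, adjusted p = 0.94).

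Irx3, the partner of Irx5 in the mouse heart and in the same cluster, was the steadiest member. It was at 74.1, 84.3 and 98.8 CPM in P18 Irx5KO and at 73.4, 52.9 and 92.4 CPM in P18 WT. At P20 it was at 92.0, 109, 95.4 and 119.9 CPM in Irx5KO 1 to 4 and at 101, 77.1, 103 and 116 CPM in WT 1 to 4. The groups overlapped at both ages. Differences were 0.11 ± 0.23 at P18, 0.07 ± 0.19 at P20, 0.17 ± 0.26 in P20 numbers 1 and 2 and -0.03 ± 0.26 in numbers 3 and 4 (log2, SE, edgeR adjusted p = 0.96, 0.97, 0.92 and 1.0). Irx3 therefore did not show the opposite movements of Irx5 in the P20 codes, with a difference between them of -0.20 ± 0.36 (adjusted p = 0.98), which turned to 0.07 at raw library sizes.

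The split of Irx3 between its own 2 transcripts was not steady. Irx3-201 took between 0.0001% and 81.1% of Irx3 counts, and the transcripts have 44 and 182 windows of 31 bases of their own. With so few distinguishing bases, only the gene sum was used.

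Irx6 had 420 counts in all 14 libraries together, 189 of them in P18 WT 2. At P18 there were 1, 0 and 13 counts in Irx5KO 1 to 3 and 52, 189 and 33 counts in WT 1 to 3. At P20 there were 41, 22, 0 and 0 counts in Irx5KO 1 to 4 and 0, 69, 0 and 0 counts in WT 1 to 4. The 3 libraries with the highest Irx6 CPM, P18 WT 2 at 9.16, P20 WT 2 at 2.72 and P18 WT 1 at 1.41, were also the 3 with over 1% of counts in receptor genes, and the part of that RNA in the Irx6 counts was not tested. A count of 0 allows up to 3 counts, and no fold change is given for Irx6.

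**Figure D3:**
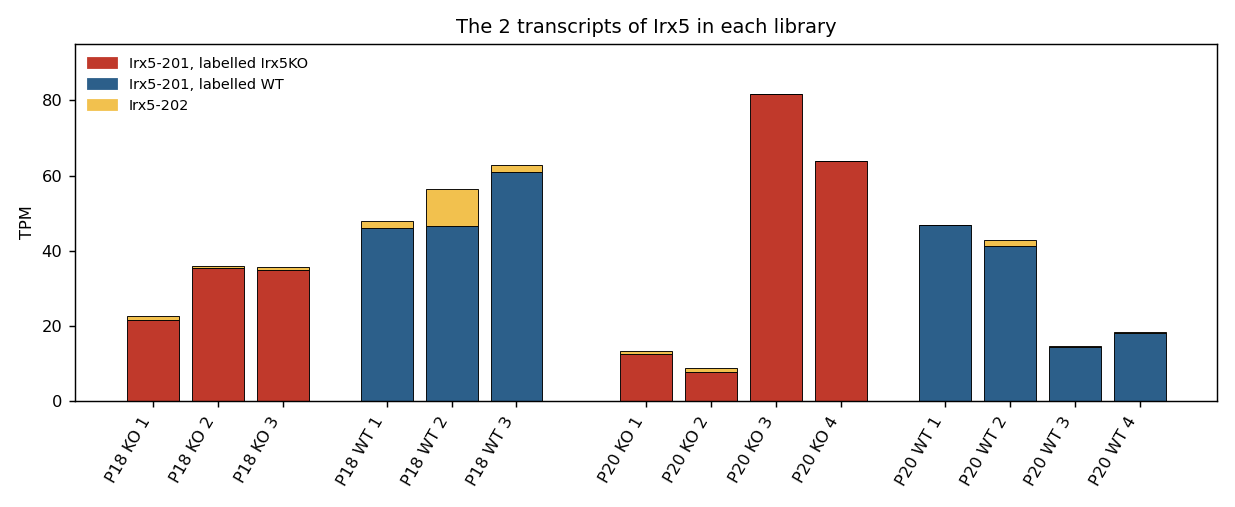
TPM (y axis, from 0) of Irx5-201, in red for libraries labelled Irx5KO and blue for those labelled WT, with Irx5-202 stacked above it in yellow, in each of the 14 libraries (x axis). Irx5-201 makes up nearly all of Irx5 in both genotypes, and Irx5-202 is largest in P18 WT 2 at 9.67 TPM.

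Both Irx5 transcripts were found in libraries labelled Irx5KO, and neither was lost there alone. Irx5-201 held 82.2% to 100% of the Irx5 counts of a library. It was at 21.7, 35.4 and 34.9 TPM in P18 Irx5KO 1 to 3 and at 46.2, 46.6 and 60.9 TPM in P18 WT 1 to 3. At P20 it was at 12.7, 7.87, 81.7 and 64.0 TPM in Irx5KO 1 to 4 and at 47.0, 41.2, 14.3 and 18.3 TPM in WT 1 to 4. The gene-level pattern was that of Irx5-201, with no overlap at P18 (exact permutation test, n = 3 each, p = 0.1) and a reversal between the P20 codes. Whether the lack of overlap singles out Irx5-201 was not tested. Among genes, 19.5% had that separation in CPM, and the share among transcripts was not computed. With scaling over all genes, the gene-level Irx5 groups overlapped at P18.

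In edgeR over 75440 transcripts, Irx5-201 differed by -0.92 ± 0.81 at P18 and by 0.09 ± 0.86 at P20 (log2, SE, adjusted p = 1.0 for both), where no transcript was called (0%; 1802 and 3610 at an unadjusted p under 0.05, with no other tool run on transcripts). Within P20 it differed by -2.16 ± 0.32 in numbers 1 and 2 (adjusted p = 0.089; 0.0265% of transcripts called) and by 2.33 ± 0.32 in numbers 3 and 4 (adjusted p = 0.0096; 0.68% called). The difference between the codes was 4.50 ± 0.46 (adjusted p = 0.0017; 0.756% called). The 513 transcripts called in numbers 3 and 4 became 1919 without Irx5KO 3, 1005 without Irx5KO 4, 197 without WT 3 and 208 without WT 4. The call in numbers 3 and 4 was lost with scaling over all genes and when WT 3 or WT 4 was left out (adjusted p = 0.080, 0.13 and 0.089). Raw library sizes brought numbers 1 and 2 past the threshold (adjusted p = 0.046).

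Irx5-202, the form with the longer coding end, was rare. It was at 1.07, 0.435 and 0.695 TPM in P18 Irx5KO 1 to 3 and at 1.73, 9.67 and 1.95 TPM in P18 WT 1 to 3. At P20 it was at 0.786, 1.00, 0 and 0 TPM in Irx5KO 1 to 4 and at 0, 1.62, 0.413 and 0.0783 TPM in WT 1 to 4. It was lower in every Irx5KO than in every WT library at P18 (exact permutation test, n = 3 each, p = 0.1) and overlapped at P20. With labels permuted within age over both ages the exact test gave p = 0.0686. Among genes, 19.5% had the same separation at P18 in CPM, and the share among transcripts was not computed. Whether the separation singles out Irx5-202 was therefore not tested.

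The share of Irx5 counts in Irx5-202 was 4.90%, 1.26% and 2.03% in P18 Irx5KO and 3.77%, 17.8% and 3.23% in P18 WT. It was 6.08%, 11.7%, 0% and 0% in P20 Irx5KO and 0%, 3.95%, 2.92% and 0.445% in P20 WT. The shares overlapped at both ages. The mean share in Irx5KO was 5.52 percentage points lower at P18 and 2.62 points higher at P20 than in WT, and 1.45 points lower over both ages (two-sided exact permutation tests, n = 3 and 4 per group, p = 0.3, 0.5429 and 0.7057). Without P18 WT 2 the P18 difference was -0.768 points, and without P20 Irx5KO 2 the P20 difference was 0.197 points. P18 WT 2, with the highest share, was also the library with the most receptor gene counts, and the part of that was not tested. Where Irx5 was highest, in P20 Irx5KO 3 and 4, Irx5-202 was estimated at 0 counts. The estimates carry no error of their own in the values used here, so intervals on these shares were not computed.

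**Figure D4:**
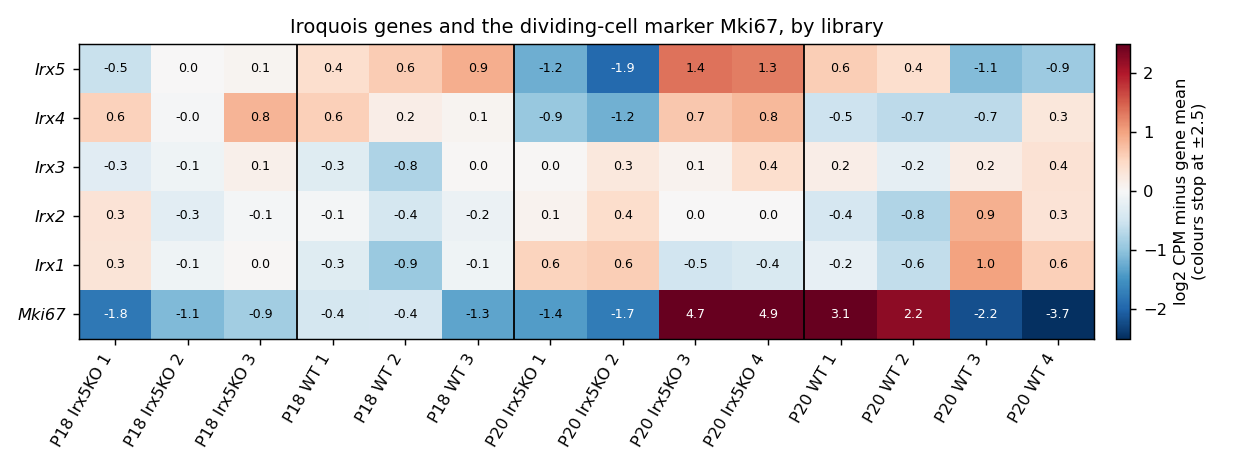
Log2 CPM of Irx5, Irx4, Irx3, Irx2, Irx1 and the dividing-cell marker Mki67 (rows) in each library (columns), minus the gene's mean over the 14 libraries, red for above and blue for below. Black lines part the groups, and colours stop at 2.5 while the printed numbers do not. In P20 Irx5KO 3 and 4 both Irx5 and Mki67 are red, and in P20 Irx5KO 1 and 2 and WT 3 and 4 both are blue.

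Markers of dividing cells moved with Irx5 at P20. Mki67, a protein of proliferating nuclei, was at 18.5, 14.4, 1252 and 1419 CPM in P20 Irx5KO 1 to 4 and at 429, 228, 10.5 and 3.75 CPM in P20 WT 1 to 4. Of the 4 markers (Mki67, Top2a, Cenpf and Bub1b), 4 fell in Irx5KO 1 and 2 against WT 1 and 2, with a median of -4.18 on the log2 scale, and 4 rose in Irx5KO 3 and 4 against WT 3 and 4, with a median of 7.65. Of all genes, 0.516% fell in the first of these comparisons and 2.2% rose in the second, and the medians of all genes were -0.34 and 0.00. The markers of dividing cells and Irx5 thus ran in one direction in the P20 libraries, and their part in the Irx5 result was not tested. At P18, Mki67 was at 14.1, 22.7 and 26.6 CPM in Irx5KO and at 36.0, 36.5 and 19.6 CPM in WT, with none of the 4 markers called. Of the 8 bulge markers, 8 had positive differences in numbers 1 and 2 and 0 in numbers 3 and 4, and none passed in either code.

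Between ages, no Iroquois gene passed in edgeR. In WT, from P18 to P20, Irx1 differed by 0.74 ± 0.38, Irx3 by 0.45 ± 0.23, Irx2 by 0.36 ± 0.32, Irx4 by -0.63 ± 0.44 and Irx5 by -0.72 ± 0.71 (log2, SE, adjusted p between 0.56 and 0.67), where 48 genes were called (0.195%). In Irx5KO, Irx5 differed by 0.64 ± 0.72 and Irx4 by -0.40 ± 0.44 (adjusted p = 0.79 and 0.78), where 387 were called (1.57%). With 1 library left out, these counts lay between 6 (without P20 WT 4) and 90 (without P20 WT 2) in WT and between 56 (without P18 Irx5KO 3) and 417 in Irx5KO. Limma voom with quality weights called Irx1, Irx3, Irx4 and Irx5 in WT (adjusted p = 0.0028, 0.0048, 0.021 and 0.013), in a fit that called 14331 genes. Without P20 numbers 3 and 4, the edgeR differences in WT were 0.04 for Irx1 and -0.14 for Irx5. In Irx5KO, the same comparison gave -1.41 for Irx5 (edgeR adjusted p = 0.0257) and -1.57 for Irx4 (adjusted p = 0.0143). The share of all genes called in that fit is not given here, so whether these calls single out Irx5 and Irx4 is not known. Each age has its own codes, so age and code cannot be told apart.

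Of the genes that neighbour the Irx3, Irx5 and Irx6 cluster, 8 of 10 listed had counts. Fto, whose introns hold enhancers of Irx3, was at 75.5 to 123 CPM over the 14 libraries, with overlapping groups at both ages. None of the 8 passed in edgeR at P18, at P20 pooled or in P20 numbers 1 and 2, and 2 fell in numbers 3 and 4, where 2.62% of all genes fell. Mmp2, a secreted protease that degrades matrix, was at 105 and 43.1 CPM in Irx5KO 3 and 4 and at 386.5 and 279 CPM in WT 3 and 4 (-2.17 ± 0.41, adjusted p = 0.0078). In numbers 1 and 2 it went the other way, with 277 and 253 CPM in Irx5KO and 98.8 and 51.7 CPM in WT (1.81 ± 0.41, adjusted p = 0.080), and the difference between the codes passed (-3.99 ± 0.58, adjusted p = 0.000929). Mmp2 is also made by stromal cells. In numbers 3 and 4, 1 of 6 fibroblast markers fell (Pdgfra, 0.0688 against 3.08 CPM on average) and 1 of 3 endothelial markers fell (Kdr, 0 against 0.696 CPM). Over all P20 libraries the summed fibroblast markers lay at 12.7 to 56.9 TPM in Irx5KO and 37.6 to 84.8 in WT, and the summed endothelial markers at 1.56 to 15.2 and 3.16 to 11.7 TPM. The median log2 difference in numbers 3 and 4 was -2.59 for the fibroblast markers, with 1 of 6 positive. It was -7.16 for the endothelial markers, with 0 of 3 positive, and 0.0 for all genes. In numbers 1 and 2 none of these 9 markers passed. There the medians were -0.08 for fibroblast and -0.89 for endothelial markers, against -0.34 for all genes. The part of stromal cells in the Mmp2 result was not tested. The Mmp2 call in numbers 3 and 4 was lost without Irx5KO 4 or WT 3 (adjusted p = 0.063 for both), and DESeq2 called Mmp2 in numbers 1 and 2 as well (adjusted p = 0.0025). Capns2, a small calpain subunit, differed by -1.08 ± 0.27 in numbers 3 and 4 (edgeR adjusted p = 0.032), a call lost without Irx5KO 3, WT 3 or WT 4, with scaling over all genes, at raw library sizes and with length offsets. Rpgrip1l, a ciliary gene next to Fto, was at 5.38 and 14.3 CPM in P20 Irx5KO 1 and 2 against 15.8 and 15.4 CPM in WT 1 and 2. It was at 38.7 and 27.4 CPM in Irx5KO 3 and 4 against 12.6 and 14.3 CPM in WT 3 and 4, and passed in neither code. Lpcat2 ranged from 19.6 to 70.7 CPM over the 14 libraries, Slc6a2 from 3.36 to 17.2 and Gnao1 from 2.06 to 24.0, and none of these 3 passed. The 2 listed symbols with no uniquely matched counts were Irx3os and Crnde.

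Among 12 other homeobox genes of the TALE class, the Meis, Pbx, Pknox and Tgif families and Mkx, none passed at P18, at P20 pooled or in P20 numbers 1 and 2. In numbers 3 and 4, Mkx rose, with 7.63 and 1.49 CPM in Irx5KO and 0 and 0.303 CPM in WT (edgeR adjusted p = 0.0347), a level near 0. That call was lost without any of P20 Irx5KO 1, 2 or 3 or WT 3 and with length offsets. The share of all genes called there was 4.82%. The median log2 difference of the class was 0.08 in numbers 1 and 2, with 9 of 12 positive, and -0.02 in numbers 3 and 4, with 6 of 12 positive.

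Of 12 genes tied to Iroquois factors in other tissues, none passed at P18 or at P20 pooled, 1 fell in P20 numbers 1 and 2 (of all genes, 0.516% fell), and 1 rose and 2 fell in numbers 3 and 4 (of all genes, 2.2% rose and 2.62% fell). Ptch1, the Hedgehog receptor and a target of that pathway, had the pattern of Irx5. It was at 51.3 and 63.5 CPM in Irx5KO 1 and 2 against 170.5 and 256 CPM in WT 1 and 2 (-1.89 ± 0.33, edgeR adjusted p = 0.0108). It was at 586 and 284 CPM in Irx5KO 3 and 4 against 90.2 and 106 CPM in WT 3 and 4 (2.15 ± 0.33, adjusted p = 0.00125). Cxcl12, a chemokine that IRX5 represses in Xenopus, had the opposite order, with 84.2 and 80.2 CPM in Irx5KO 1 and 2 and 73.8 and 43.8 CPM in WT 1 and 2, and 23.6 and 25.9 CPM in Irx5KO 3 and 4 against 119.7 and 69.3 CPM in WT 3 and 4 (-1.93 ± 0.32, adjusted p = 0.0022). The fall of Pdgfra and Kdr in numbers 3 and 4, and the negative medians of both stromal marker lists there, accompany the Cxcl12 fall. The part of stromal cells in it was not tested. Fgf18, a growth factor of the resting follicle, also fell in numbers 3 and 4 (-3.94 ± 0.91, adjusted p = 0.0373). Ptch1, Cxcl12 and Fgf18 differed between the codes (4.04 ± 0.46, -2.42 ± 0.44 and -5.73 ± 1.22, adjusted p = 6.9e-05, 0.0036 and 0.023). The Ptch1 call in numbers 1 and 2 was lost with scaling over all genes and in limma voom (adjusted p = 0.13 and 0.17), and without Irx5KO 1, Irx5KO 2 or WT 2 (adjusted p = 0.27, 0.21 and 0.067). Fgf18 was lost in numbers 3 and 4 in limma voom, without the receptor-rich libraries, and without Irx5KO 3, Irx5KO 4, WT 4 or P18 WT 1. Its difference between the codes was lost in limma voom, without the receptor-rich libraries, and without P20 Irx5KO 1, Irx5KO 4 or WT 1.

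**Figure D5:**
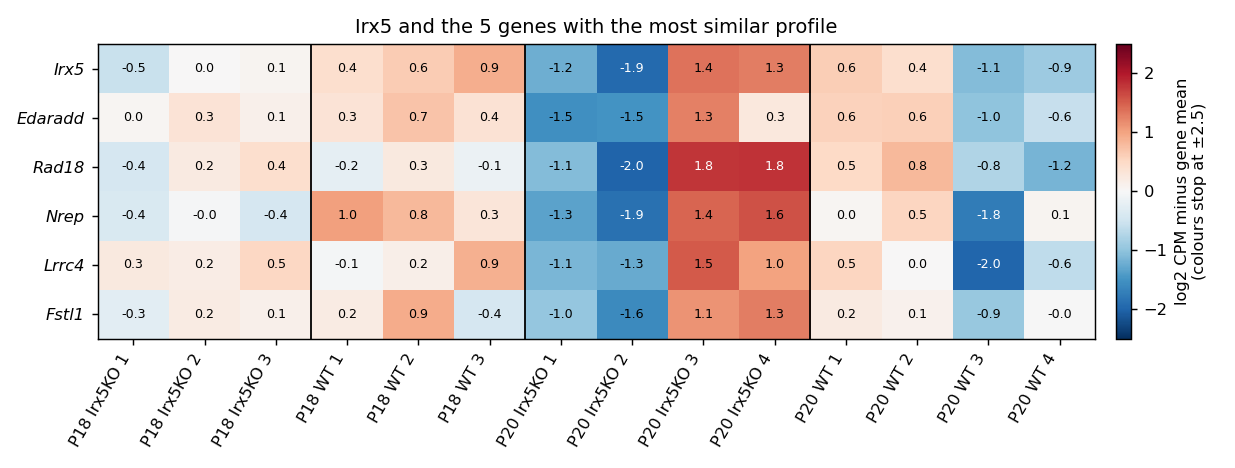
Log2 CPM of Irx5 and of the 5 genes with the most similar profile (rows) in each library (columns), minus the gene's mean over the 14 libraries, red for above and blue for below. Black lines part the groups. All 6 genes are lowest in P20 Irx5KO 1 and 2 or P20 WT 3 and 4 and high in P20 Irx5KO 3.

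The genes most like Irx5 were sought among 9160 well expressed protein-coding genes by the root mean square difference of log2 CPM centred on each gene's mean over the 14 libraries. The smallest differences were those of Edaradd (0.401), Rad18 (0.438), Nrep (0.452), Lrrc4 (0.461) and Fstl1 (0.489), against a median of 1.07 over all genes compared and 0.965 for a gene with no change. Edaradd is an adaptor of the ectodysplasin receptor, Rad18 a ubiquitin ligase of DNA damage tolerance and Fstl1 a secreted glycoprotein. They shared with Irx5 low values in P20 Irx5KO 1 and 2 and their highest values in P20 Irx5KO 3 or 4. Edaradd, for example, was at 5.67 and 5.85 CPM in the first pair and at 39.75 and 20.05 CPM in Irx5KO 3 and 4, of which the latter lay below P20 WT 1 and 2. With scaling over all genes, 4 of the 5 were the same and Mmp15 replaced Fstl1. The libraries share the sort and, within a set, the code, and the likeness describes these 14 libraries only. For Irx3 the nearest were Cox4i1 (0.130), a subunit of cytochrome c oxidase, the tetraspanin Cd9 (0.140) and the endosomal protein Rabep1 (0.140), against 0.303 for a gene with no change, so Irx3 lay close to flat.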

How the data were processed

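RNA was sequenced from 14 libraries with single-end reads. Per the submitters' processing notes, kallisto 0.46.2 quantified transcripts and the build was mm10; the transcript annotation and strand setting are not given in the sources used here. Per the file headers, the authors deposited estimated counts, TPM and effective length for each transcript. Of 118489 transcripts, 116816 were matched to GENCODE M21 gene names, and the 1673 others held 1.19% to 2.59% of counts.

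Estimated counts were summed per gene, rounded to whole numbers and tested with edgeR 4.0.16 (quasi-likelihood, robust) in R 4.3.3 over all 14 libraries, with Benjamini-Hochberg adjustment over 24592 genes. Scaling factors came from 10541 well expressed genes. Genotype comparisons carried the code within age as a covariate, and age comparisons did not. The pooled genotype comparisons had no term for a genotype difference that varies between codes, so such variation counts as spread in them. Standard errors were derived from the test statistic and are approximate. Alternatives used DESeq2 1.42.0 and limma 3.58.1 (voom). Sequences come from the GENCODE M21 transcripts. Deviations of same-numbered libraries correlated at 0.349, 0.122 and 0.228 at P18, so a pairing by number was tried as a replicate block, from the data and not the labels. The margin was small for Irx5KO 2, at 0.122 with WT 2 and 0.111 with WT 3, and WT 2 carries the other code. The main fit and the permutation tests used no pairing. At P20 same-numbered libraries correlated at 0.086, 0.293, 0.041 and 0.274 and were not taken as pairs. The edgeR gene test of the pooled P20 genotype comparison was checked on simulated data, with each change in the same direction in both codes. Genes named beyond the family are the cluster neighbours (a member of that list is not reported here), up to 4 members of each other list by p, and the genes with the most similar profiles. The members and lists were chosen with earlier results of these data known. Library totals ran from 13618367 to 70083873 counts.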

Additional observations from a re-analysis of the deposited data

Results flagged for a closer look

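The genotype difference of 3 family members differed between the P20 libraries numbered 3 and 4 and those numbered 1 and 2, by the edgeR test of the difference itself. It was 4.38 for Irx5, -2.21 for Irx1 and -1.48 for Irx2 on the log2 scale. Of all genes, 5.16% were called in that test. The Irx2 call was lost under other scalings and with single libraries left out, as given above. In P20 WT, the Irx4 level of 62.9 CPM in WT 4 stood apart from the other 3 libraries, at 32.7 to 36.1 CPM. Irx6 was at 2.72 CPM in P20 WT 2 and at 0 in the other 3 P20 WT libraries. A library was taken to stand apart when its gap to the nearest other exceeded 0.829 of the group's range, which chance gives in about 1 group in 20 for normally distributed values. That rate does not apply to Irx6, where the other 3 libraries are at 0 and any count would stand apart.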

How the results depend on the processing

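Without P20 libraries 3 and 4, pooled P20 differences became -2.07 for Irx5, 0.97 for Irx1, -0.48 for Irx4 and -2.17 for Irx5-201; the Irx5 difference between ages became -1.10, the age difference -1.41 for Irx5 in Irx5KO and -0.35 for Irx2 in WT, and the Irx5-202 share difference over both ages 0.699 points. Limma voom gave -1.16 for Irx5 (adjusted p = 0.0134) with age in WT, -0.82 for Irx5 with age in Irx5KO, and -0.105 for Irx2 and -0.013 for Irx3 at P20. Irx2 at P20 was -0.003 without the code term. Without the receptor-rich libraries, Irx2 and Irx3 were -0.009 and -0.021 at P18 and -0.114 and -0.001 at P20. At raw library sizes Irx3 was 0.101 in P20 numbers 3 and 4 and 0.068 for the difference between codes. With scaling over all genes, the Irx5 mean difference over both ages was 6.03 CPM. For these, the cause was not tested.

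Leaving out 1 library at a time gave ranges of -0.77 to 1.04 for Irx5, -0.51 to 0.20 for Irx1, -0.13 to 0.36 for Irx2, -0.016 to 0.156 for Irx3 and -0.11 to 0.38 for Irx4 at P20. Irx3 ranged from -0.016 to 0.249 at P18, from -0.004 to 0.386 in P20 numbers 1 and 2 and from -0.19 to 0.14 in numbers 3 and 4, Irx5 from -2.42 to -1.72 in numbers 1 and 2, and Irx2 from -0.022 to 0.555 with age in WT. Irx5-201 at P20 ranged from -0.85 to 1.05 and the Irx5-202 share difference over both ages from -2.71 to 0.925 points.

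The number of genes called moved more than single values did. At P18 it went from 0 to 22 with DESeq2, 183 with no low count filter and 1 with limma voom. At P20 it went from 0 to 91, 209 and 181 with these, and to 119 without numbers 3 and 4. The interaction went from 0 to 11 with DESeq2, 19 with no filter and 26 without numbers 3 and 4. With age in WT it went from 48 to 682 with DESeq2, 14331 with limma voom, 0 with scaling over all genes, 24 with length offsets, 235 without numbers 3 and 4 and 2 without the receptor-rich libraries. With age in Irx5KO it went from 387 to 1390, 1287, 101 and 213 under the first 4 of these. In P18 Irx5KO 1 against WT 1 and 2 it went from 1 to 363 with DESeq2, 892 with no filter and 0 with limma voom. In P18 Irx5KO 2 and 3 against WT 3 it went from 0 to 3 with DESeq2, 29 with no filter, 1 with scaling over all genes and 4 without the receptor-rich libraries. In P20 numbers 1 and 2 it went from 161 to 463 with DESeq2, 670 with no filter, 32 with limma voom and 95 with length offsets, and to between 30 and 255 with 1 library left out. In numbers 3 and 4 it went from 1186 to 2647, 2100 and 1894 with DESeq2, no filter and limma voom, to 1878 without the receptor-rich libraries, and to between 424 and 1576 with 1 library left out. For the difference between codes it went from 1270 to 2404 with DESeq2 and 2042 with no filter, and to between 649 and 1448 with 1 library left out. With scaling over all genes, transcripts called went from 20 to 3 in numbers 1 and 2 and from 570 to 314 for the difference between codes.

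With 1 library left out, transcripts called lay between 0 (without Irx5KO 1) and 31 in numbers 1 and 2, between 197 and 1919 in numbers 3 and 4 and between 222 (without WT 3) and 1971 (without Irx5KO 3) for the difference between codes. Genes called lay between 1 and 29 in P18 Irx5KO 1 against WT 1 and 2 and between 0 and 3 in Irx5KO 2 and 3 against WT 3. The replicate block gave -0.82 for Irx5 at P18, where same-numbered libraries deviated together, and changed no call there. At P20, where not every library correlated best with its own number, it gave 0.11, and for the interaction 0.93, with 0 genes called in each and no call changed.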
